A study of Mus musculus with 7 samples.

Results

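Fos peaks were examined around 10 genes of the circadian clock: Per1, Per2, Per3, Cry1, Cry2, Clock, Npas2, Nr1d1, Dbp and Bhlhe40. A peak was assigned to a gene when it overlapped the gene's span in the mouse assembly GRCm38, extended by 50 kb on each side, and the 10 genes are 10 of the 21887 protein-coding genes of the RefSeq table used. The data are chromatin immunoprecipitation with sequencing (ChIP-seq) of mouse hippocampus with a monoclonal antibody to Fos, the product of an immediate early gene, which pairs with Jun proteins as AP-1. All animals were wild-type C57BL/6J mice of 2 months. The 3 saline libraries came from mice given PBS. The 3 kainic acid libraries came from mice given 2 intraperitoneal injections of kainic acid at 10 mg/kg, 30 min apart, which were killed 1 hour after the first one with seizures of level 4. Kainic acid activates glutamate receptors and provokes seizures. The input library, chromatin without antibody, enters no comparison here. Whether the libraries of a group came from separate animals is not given in the labels, so the p-values below measure only the spread between these libraries, which may be technical. In whole hippocampus, a site bound in few cells and a site bound weakly in many cannot be told apart.

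The clock is a feedback loop of transcription. CLOCK, or its relative NPAS2, pairs with BMAL1 (encoded by Arntl) and activates genes through E-box sequences, among them Per1 to Per3 and Cry1 and Cry2, whose protein products then repress that pair. NR1D1 (REV-ERB alpha) represses Arntl, DBP activates genes through D-box sequences, and BHLHE40 (DEC1) represses E-box genes. Per1 is also known as a gene that responds quickly to stimuli, in the brain's master clock after light and in other neurons after activity.

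The lists held 7, 3277 and 2 peaks for saline replicates 1 to 3 and 15009, 63197 and 29650 for kainic acid replicates 1 to 3. The files give no read totals, so depth is unknown and list length is the only measure of yield. Where a list has no peak at a gene, nothing was called there, and binding below the calling threshold was not measured. The authors' fold of a peak is a linear ratio of its signal to a background. Whether that background came from the same library or from the input is not given in the sources used here. The fold is used here to rank peaks within a list, where percentile 0 is the highest fold and 100 the lowest. Peaks of all lists that overlapped by at least 1 bp were merged, and a merged region supported by 2 or all 3 of the kainic acid libraries is called a kainic acid region.

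The promoters on which the peaks bear come first, because they show which of the genes with a listed promoter had a called Fos peak within it. RefSeq promoters (GRCm38.p6, 250 bases before to 50 after a start) were present for 8 of the 10 genes. Per2 and Bhlhe40 had no listed promoter, so peaks at their starts were not examined here. A peak further from a start falls outside such a window. No kainic acid replicate 1 peak reached any of these promoter windows. A start of Per1 was covered by peaks of kainic acid replicates 2 and 3. A saline replicate 2 peak lay in the same Per1 window but ended short of the start. The Nr1d1 and Cry1 starts were covered by kainic acid replicate 2 alone, and the Dbp start by saline replicate 2 alone. At Cry2 the peak of kainic acid replicate 2 covered the upstream 69 bases of the window and ended short of the start. These 5 windows are printed 5′ to 3′ on the strand of the gene, with the bases under a called peak of any list in capitals. They lie at chr11:69099902-69100201 (Per1, downstream of its 2 listed starts, + strand), chr11:98775328-98775627 (Nr1d1, − strand), chr2:92434020-92434319 (Cry2, − strand), chr10:85185005-85185304 (Cry1, − strand) and chr7:45704997-45705296 (Dbp, + strand).
Per1: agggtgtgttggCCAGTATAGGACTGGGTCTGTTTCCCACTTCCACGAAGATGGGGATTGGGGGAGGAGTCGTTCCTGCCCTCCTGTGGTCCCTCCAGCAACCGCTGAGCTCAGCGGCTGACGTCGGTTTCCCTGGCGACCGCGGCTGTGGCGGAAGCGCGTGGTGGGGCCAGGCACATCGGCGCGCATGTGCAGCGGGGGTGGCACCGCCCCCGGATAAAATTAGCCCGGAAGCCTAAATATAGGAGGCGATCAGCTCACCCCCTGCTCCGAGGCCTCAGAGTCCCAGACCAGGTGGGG
Nr1d1: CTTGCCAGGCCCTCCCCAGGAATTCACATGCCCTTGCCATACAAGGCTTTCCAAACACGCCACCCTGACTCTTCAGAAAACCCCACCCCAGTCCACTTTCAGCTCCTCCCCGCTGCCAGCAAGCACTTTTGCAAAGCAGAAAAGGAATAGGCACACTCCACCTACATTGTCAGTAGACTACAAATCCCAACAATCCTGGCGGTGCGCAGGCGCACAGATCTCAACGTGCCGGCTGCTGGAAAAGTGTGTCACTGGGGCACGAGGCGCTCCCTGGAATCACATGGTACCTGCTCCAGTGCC
Cry2: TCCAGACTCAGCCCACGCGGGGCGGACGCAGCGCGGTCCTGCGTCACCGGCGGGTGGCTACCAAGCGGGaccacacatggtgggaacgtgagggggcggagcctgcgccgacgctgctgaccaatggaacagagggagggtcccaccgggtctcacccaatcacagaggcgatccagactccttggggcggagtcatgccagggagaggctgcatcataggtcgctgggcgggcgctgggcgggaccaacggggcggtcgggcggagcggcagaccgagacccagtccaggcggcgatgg
Cry1: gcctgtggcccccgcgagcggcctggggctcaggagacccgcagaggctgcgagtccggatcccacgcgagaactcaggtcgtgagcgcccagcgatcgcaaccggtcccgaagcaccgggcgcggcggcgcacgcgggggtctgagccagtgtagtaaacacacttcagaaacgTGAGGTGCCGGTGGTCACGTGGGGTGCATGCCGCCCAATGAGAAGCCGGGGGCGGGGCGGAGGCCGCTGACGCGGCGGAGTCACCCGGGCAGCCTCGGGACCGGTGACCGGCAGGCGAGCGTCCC
Dbp: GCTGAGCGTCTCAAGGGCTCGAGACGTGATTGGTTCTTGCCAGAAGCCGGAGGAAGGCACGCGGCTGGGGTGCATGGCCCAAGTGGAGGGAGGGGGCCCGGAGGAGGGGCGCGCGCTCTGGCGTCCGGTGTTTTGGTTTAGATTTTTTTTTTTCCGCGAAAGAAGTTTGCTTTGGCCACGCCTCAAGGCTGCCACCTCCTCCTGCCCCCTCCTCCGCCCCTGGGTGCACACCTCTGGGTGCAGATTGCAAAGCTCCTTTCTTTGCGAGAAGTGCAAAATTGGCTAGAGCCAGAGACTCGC

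The peaks covered 288 of the 300 bases at Per1, all 300 at Nr1d1 and Dbp, 125 at Cry1 and 69 at Cry2. The letters of 4 motifs were searched on both strands in the 11 promoter windows of the 8 genes. The AP-1 motif TGANTCA was in 0 of the 11 and in 7.81% of all 32851 promoters of the table. The cyclic AMP response element TGACGTCA was in 0 of the 11 and in 1.79% of all. The E-box CACGTG was in 2 of the 11, at Cry1 and at the upstream start of Per1, against 7.15% of all. In Cry1 it starts 60 bases before the start site, inside the capitals above. At the upstream Per1 start (chr11:69098699-69098998) it starts 166 bases before the site, under a kainic acid replicate 2 peak of fold 2.06. That peak was near the bottom of its list (rank 63186 of 63197), and no other list had a peak there. The D-box TTATGTAA was in the Per3 promoter only among the 11, at 205 and 158 bases before the start, against 0.938% of all, and no list had a peak at that promoter. These are matches of letters, not bound sites, and no match says only that the letters are not in the window.

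Of the 10 clock genes, 9 had at least 1 kainic acid region in their window, and Clock had none. Among all protein-coding genes 62.7% had one. Within 10 kb of the gene, 8 of the 10 had one (all but Per3 and Clock), against 40.0% of all. A region found in all 3 kainic acid lists lay near 6 of the 10 (Per1, Per2, Per3, Cry2, Npas2 and Nr1d1), against 42.5% of all protein-coding genes. In all, 49 kainic acid regions lay in the 10 windows. Without kainic acid replicate 2 the number was 15 and without replicate 3 it was 16. Cry2 and Npas2 had 8 each, Per1 and Nr1d1 had 7 each, Per3 had 5, Per2 and Cry1 had 4 each, and Dbp and Bhlhe40 had 3 each. The median was 4.5 regions per gene, against 1 for all protein-coding genes, and per 100 kb of window 2.91 against 0.872. The windows of the clock genes were somewhat longer (median 137 kb against 117 kb).

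By library, the 10 windows held 0, 20 and 0 peaks in saline replicates 1 to 3 and 17, 114 and 49 in kainic acid replicates 1 to 3. As log10(number + 1) the means were 0.441 ± 0.763 (SD, n = 3) with saline and 1.67 ± 0.403 (SD, n = 3) with kainic acid. The groups overlapped, because saline replicate 2 had more peaks in these windows than kainic acid replicate 1, although its list is shorter. The 20 saline peaks were 0.610% of that list, while the kainic acid shares were 0.113%, 0.180% and 0.165%. A peak of saline replicate 2 lay near 7 of the 10 clock genes, against 30.2% of all protein-coding genes, and saline replicate 1 had none near the 10, against 0.0320% of all. Kainic acid replicates 1, 2 and 3 had a peak near 7, 10 and 9 of the 10, against 46.3%, 77.4% and 63.3% of all.

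**Figure D1:**
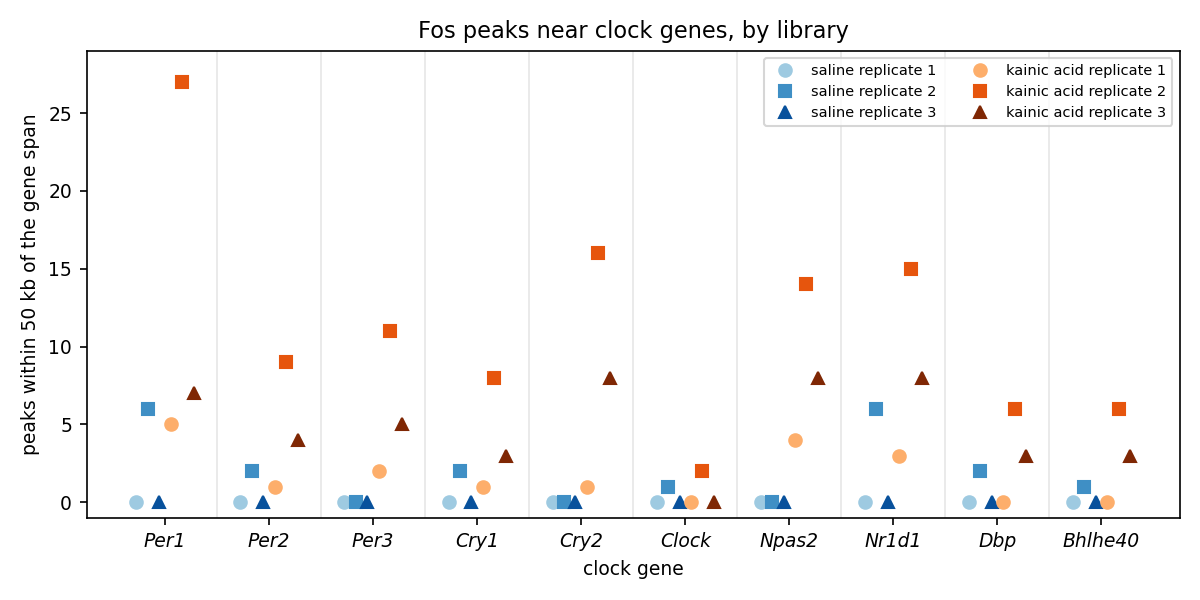
Number of Fos peaks within 50 kb of each clock gene (vertical axis) in each of the 6 libraries (1 point per library, blue saline, orange to brown kainic acid). Kainic acid replicate 2, the longest list, is the highest point at every gene, from 2 at Clock to 27 at Per1, and saline replicates 1 and 3 are at 0 throughout.

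Gene by gene, every kainic acid list had more peaks than every saline list at Per3 (2, 11 and 5 against 0, 0 and 0), Cry2 (1, 16 and 8 against 0, 0 and 0) and Npas2 (4, 14 and 8 against 0, 0 and 0). These 3 of 10 compare with 33.5% of all protein-coding genes, so the count was close to the background. The two-sided exact permutation test over the 20 assignments gave p = 0.1 for each of the 3 genes, the smallest value that 3 libraries against 3 allow, and 0.299 after Benjamini-Hochberg adjustment over 21887 genes. At no gene of the table could this test pass 0.05. At Per1 the counts were 5, 27 and 7 with kainic acid against 0, 6 and 0 with saline, and at Nr1d1 they were 3, 15 and 8 against 0, 6 and 0. At both genes the groups overlapped through saline replicate 2 alone, and the same held at Per2 and Cry1. Without that library 7 of 10 genes had more peaks in every kainic acid list, against 44.8% of all protein-coding genes, and without kainic acid replicate 1 it was 9 of 10, against 53.9%. Comparing only lists of the same replicate number, which the labels do not describe as pairs, 7 of 10 genes had more peaks with kainic acid in all 3 comparisons, against 44.3%. At Clock, Dbp and Bhlhe40 kainic acid replicate 1 had no peak at all.

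Replicate support was uneven. Kainic acid replicate 2 had a peak in all 49 regions, replicate 3 in 48 and replicate 1 in 16. Of the 49 regions, 15 were in all 3 lists, 30.6% (95% Clopper-Pearson interval 18.3 to 45.4, counting error only), against 44.4% of all 26862 kainic acid regions. With every kainic acid list held to its 15009 highest-fold peaks the share was 55.0% (11 of 20), against 57.5% of all regions, and at a −log10 q of at least 10 it was 41.7% (5 of 12), against 37.6%. A further 64 merged regions in these windows had a peak in kainic acid replicate 2 and in no other kainic acid list. In fold rank the clock gene regions were close to the rest. Their median mean percentile was 43.2, against 42.2 over all kainic acid regions, and 3 of the 49 had a mean percentile under 10 (6.12%, against 7.72% of all). Those 3 lay at Per1, Per3 and Per2, the 3 Period genes, and the best region of Npas2 followed at 10.4, just past the cut. Without kainic acid replicate 1 the best regions of Nr1d1 (6.89) and Npas2 (7.55) ranked ahead of that of Per2 (7.73). Without replicate 2 that of Npas2 (11.4) again ranked ahead of that of Per2 (12.0), and without replicate 3 the Period genes stayed first.

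**Figure D2:**
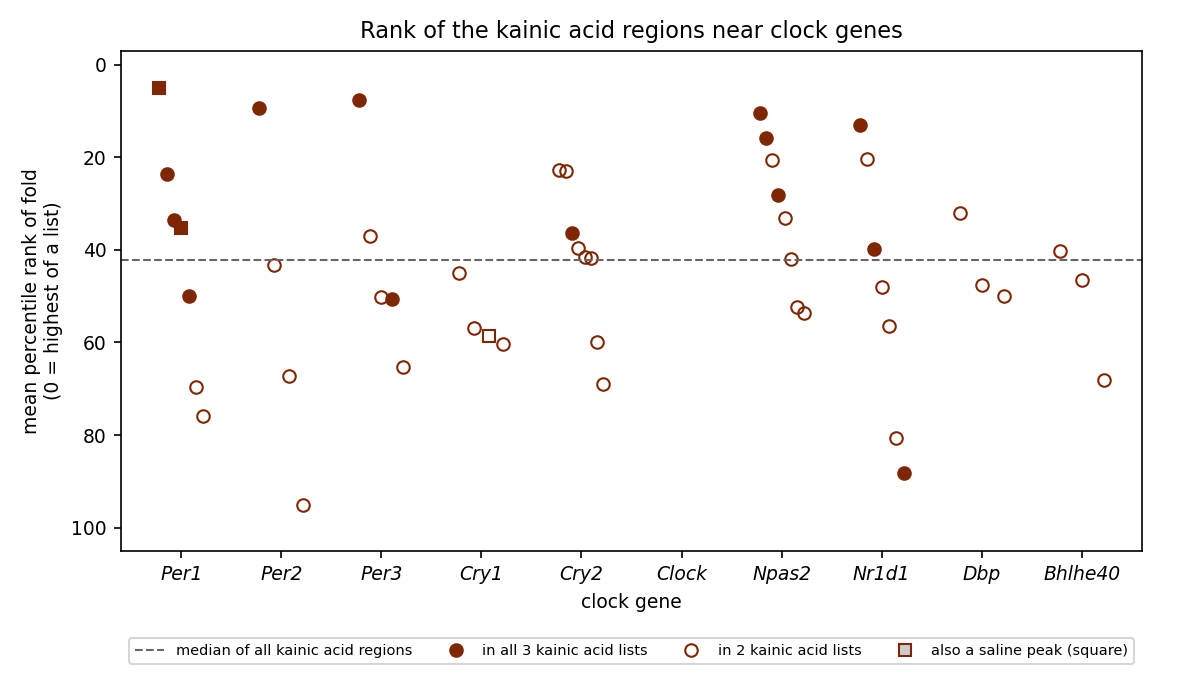
Mean percentile rank of the fold (vertical axis, 0 is the highest fold of a list) of each kainic acid region near each clock gene, averaged over the kainic acid lists with a peak. Filled symbols are regions in all 3 lists, open ones in 2, squares also have a saline peak, and the dashed line is the median of all kainic acid regions (42.2). The highest-ranked region of each Period gene lies between 5.06 and 9.43, that of Npas2 at 10.4, and Clock has none.

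Among the repressors of the loop, Per1 had the region of lowest mean percentile (5.06, against 7.56 for the best of Per3). Without kainic acid replicate 1 the order changed (2.31 for Per1, 1.75 for Per3), and without replicate 2 or 3 Per1 stayed first. The order also changed at a −log10 q of at least 10 (20.2 for Per1, 6.09 for Per3). Per1 stayed first at a −log10 q of at least 5, with equal list lengths, and with ranks by −log10 q in place of fold. The Per1 region lay at chr11:69102060-69102956, inside the gene, with its strongest summit (that of the highest −log10 q) 2373 bp downstream of the downstream start. Its fold was 6.70 in kainic acid replicate 1 (rank 1585.5 of 15009, ties sharing a mean rank), 16.7 in replicate 2 (rank 529 of 63197) and 8.46 in replicate 3 (rank 1120 of 29650). Saline replicate 2 also had a peak there, of fold 4.70, at rank 808.5 of 3277. The kainic acid summits fell within 87 bp of each other, at 69102438, 69102525 and 69102454, while the saline summit was at 69102818. The saline peak overlapped the kainic acid peaks, but its summit was 293 bp from the nearest of theirs. The kainic acid peaks were at percentiles 10.6, 0.837 and 3.78 of their lists and the saline peak at 24.7 of its own. Lists of different length do not make such ranks a measure of change.

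A second region inside Per1 covered the downstream start printed above (chr11:69099914-69100879). Its fold was 4.26, 5.45 and 5.31 in kainic acid replicates 1 to 3 and 3.61 in saline replicate 2. The peak of replicate 1 lay further into the gene and did not reach the promoter window. The strongest kainic acid summit was 272 bp past the start. The other Per1 regions in all 3 kainic acid lists were at or inside neighbours. They were at chr11:69058586-69059377, 398 bp from Borcs6 (folds 4.40, 9.30 and 5.92), at chr11:69125498-69126247 inside the epidermal lipoxygenase gene Aloxe3 (4.00, 9.79 and 4.74), and at chr11:69150758-69151721, 1643 bp from Aloxe3 (4.65, 7.03 and 2.84). The Per1 window holds 7 other protein-coding genes, among them Vamp2, which encodes a synaptic vesicle protein. Per1 kept 5 regions without kainic acid replicate 2 and 5 without replicate 3.

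**Figure D3:**
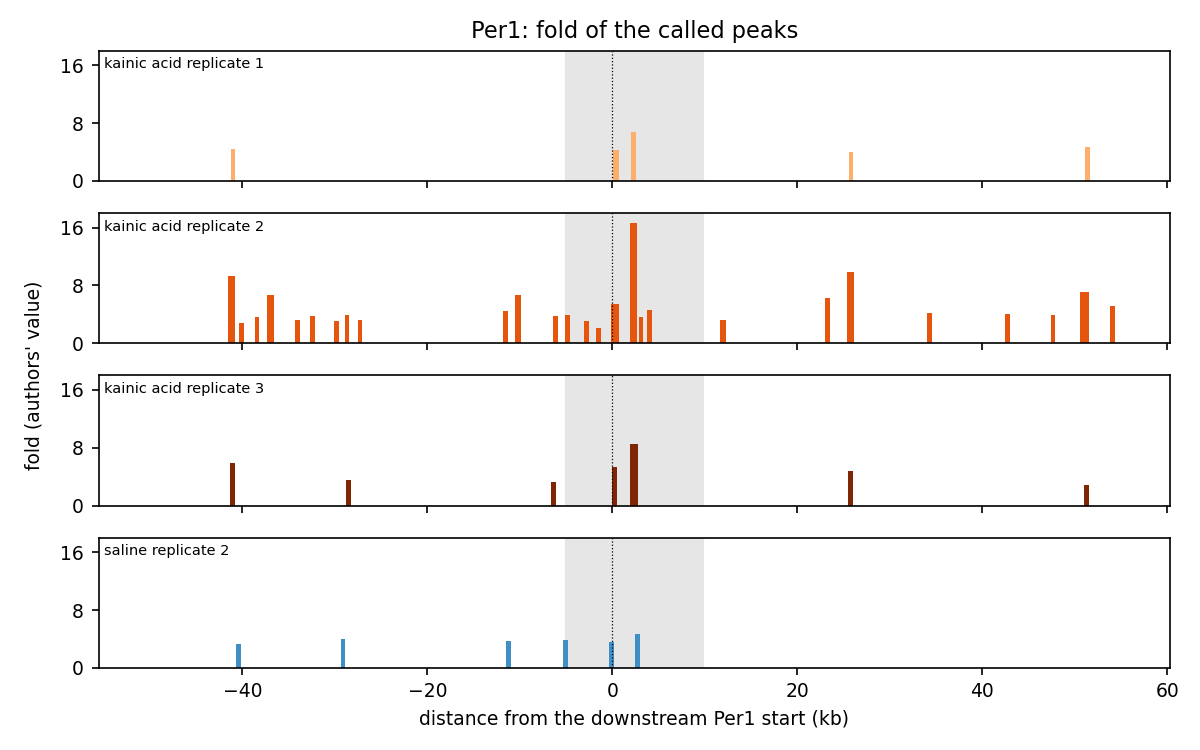
Authors' fold, a linear ratio (vertical axis), of the peaks around Per1 in the 3 kainic acid libraries and saline replicate 2, by distance in kb from the downstream Per1 start (dotted line). The grey band is the gene span, and bars are drawn at least 0.5 kb wide. The peak whose strongest summit is 2373 bp past the start is the highest in each kainic acid panel, at 6.70, 16.7 and 8.46.

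Per2 had its main region inside the gene, near the higher-coordinate end of the span (chr1:91457515-91458778). Its folds were 6.35, 10.7 and 6.40 in kainic acid replicates 1, 2 and 3, at percentiles 12.8, 4.31 and 11.2, and no saline list had a peak there. It was the single peak of kainic acid replicate 1 in the Per2 window. The other 3 regions rested on replicates 2 and 3, one of them inside Per2 (chr1:91445132-91445766, folds 2.58 and 2.95) and the others at or near Ilkap, a phosphatase gene. Saline replicate 2 had peaks of fold 4.90 in Hes6 and 3.87 in Traf3ip1, at places where no kainic acid list had one.

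Per3 differed from both in where its regions lay. None of its 5 kainic acid regions overlapped the gene. The highest-ranked was beyond the far end, 23021 bp from the span and nearest to Per3 among protein-coding genes (chr4:150973046-150973997). Its folds were 5.76, 16.7 and 9.14, at percentiles 19.2, 0.807 and 2.69, with no saline peak. In kainic acid replicates 2 and 3 this was the peak of highest fold near any of the 10 genes. The summits at 150973541, 150973567 and 150973579 fell within 38 bp. The other region in all 3 lists (chr4:150965039-150965550, folds 3.87, 6.41 and 3.66) was nearer to Tnfrsf9. The remaining 3 lay inside Vamp3 and Camta1, a gene of a calmodulin-binding transcription factor.

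The cryptochrome genes encode the other repressors. Cry2 had 8 regions but 1 in all 3 lists, directly upstream of the gene (chr2:92434251-92435568), with folds of 4.12, 6.46 and 4.74 and its strongest summit 878 bp before the start. It was the 1 Cry2 region left without kainic acid replicate 2, and likewise without replicate 3. The Cry2 region of lowest mean percentile (22.8) was distant, at chr2:92477708-92478740, nearest to the fucose transporter gene Slc35c1, with folds of 7.41 and 4.63 in replicates 2 and 3. Cry1 had 4 regions and none in all 3 lists. The best, inside the gene at chr10:85162667-85163405, had folds of 5.97 and 3.58 in replicates 2 and 3, at percentiles 23.4 and 66.4. A region over the starts of Tmem263 and Fhl4 (chr10:85101741-85102643) carried a saline replicate 2 peak of fold 4.41 beside kainic acid folds of 4.66 and 3.41 in replicates 2 and 3. Together with the 2 inside Per1 it made up the 3 of 49 clock gene regions with a saline peak (6.12%, interval 1.28 to 16.9), against 2.01% of all kainic acid regions. All 3 saline peaks were from saline replicate 2. With peaks joined only where summits lay within 200 bp, 1 of 46 regions had a saline peak (2.17%, against 1.36% of all), since the saline summits inside Per1 were 223 and 293 bp from the nearest kainic acid summit.

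The activators Clock and Npas2, which encode alternative partners of BMAL1, differed in number of regions. Npas2, with the longest window (270 kb), had 8 regions or 2.97 per 100 kb, of which 6 overlapped the gene. The 3 found in all 3 kainic acid lists lay in its first part, with strongest summits 2609, 8916 and 12879 bp past the start. The first, chr1:39195931-39197247, had folds of 5.62, 9.86 and 5.35. The second, chr1:39202682-39203592, had folds of 6.00, 8.64 and 7.35, at percentiles 16.2, 8.56 and 6.55, the best of the gene. Further in, chr1:39206675-39207406, had folds of 4.21, 8.03 and 5.70. Summits of different libraries fell within 80 bp at each of these sites, and no saline list had a peak in the window. These were also the 3 regions left without replicate 2 or without replicate 3. Clock, with a longer window (196 kb) than any of the others but Npas2, had 0 kainic acid regions under every alternative tried. Its 2 kainic acid peaks came from replicate 2, at chr5:76268219-76268479 inside the gene (fold 3.30) and in Nmu (fold 4.05), and saline replicate 2 had 1 peak of fold 3.87 next to Tmem165.

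Of the loop's further regulators, Nr1d1 had the densest window of the 10, with 6.51 regions per 100 kb, above 98.7% of protein-coding genes. Cry2 (6.13) and Per1 (6.09) followed closely. The best region of its window lay inside the thyroid hormone receptor gene Thra, whose span overlaps the far end of Nr1d1, 4292 bp from Nr1d1 (chr11:98762845-98763640), with folds of 5.34, 11.1 and 6.61. A region at its own start (chr11:98775259-98776218) was in all 3 lists, of which replicate 2 reached the promoter window, with folds of 3.90, 7.74 and 4.36 and the strongest summit 622 bp upstream. Another in all 3 lists, inside Casc3 (chr11:98810303-98810988), ranked low, with folds of 3.36, 3.08 and 3.14 and a mean percentile of 88.2. Without kainic acid replicate 2, or without replicate 3, the window kept 3 of its 7 regions. None of the 6 saline replicate 2 peaks of this window lay in a kainic acid region.

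At Dbp itself, peaks were called in saline replicate 2 only. They had folds of 3.53 over the Dbp start (chr7:45704846-45705387) and 3.36 inside the gene (chr7:45706522-45706875), at percentiles 80.7 and 86.7 of that list. No kainic acid list had a peak overlapping Dbp. Its 3 regions were in neighbours and rested on kainic acid replicates 2 and 3. They were in Car11, the gene of a carbonic anhydrase-related protein (chr7:45700699-45701152, folds 9.14 and 3.07), in Sec1 and Ntn5 (chr7:45689926-45690453, 6.25 and 4.18) and in Sult2b1, a sulfotransferase gene (chr7:45742075-45742758, 10.0 and 2.79). The window has 9 other protein-coding genes. Bhlhe40 has none in its window, and its 3 regions also rested on replicates 2 and 3. One overlapped the gene (chr6:108665418-108666117, folds 6.02 and 3.56). The others lay 33659 bp away (chr6:108700584-108701303, folds 5.09 and 4.17) and 42269 bp away (chr6:108709194-108709927, folds 4.92 and 2.39). Just outside its lower-coordinate end, kainic acid replicate 2 had peaks of fold 4.06 and 5.75 and saline replicate 2 had one of fold 3.53, none of which overlapped a peak of another list.

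**Figure D4:**
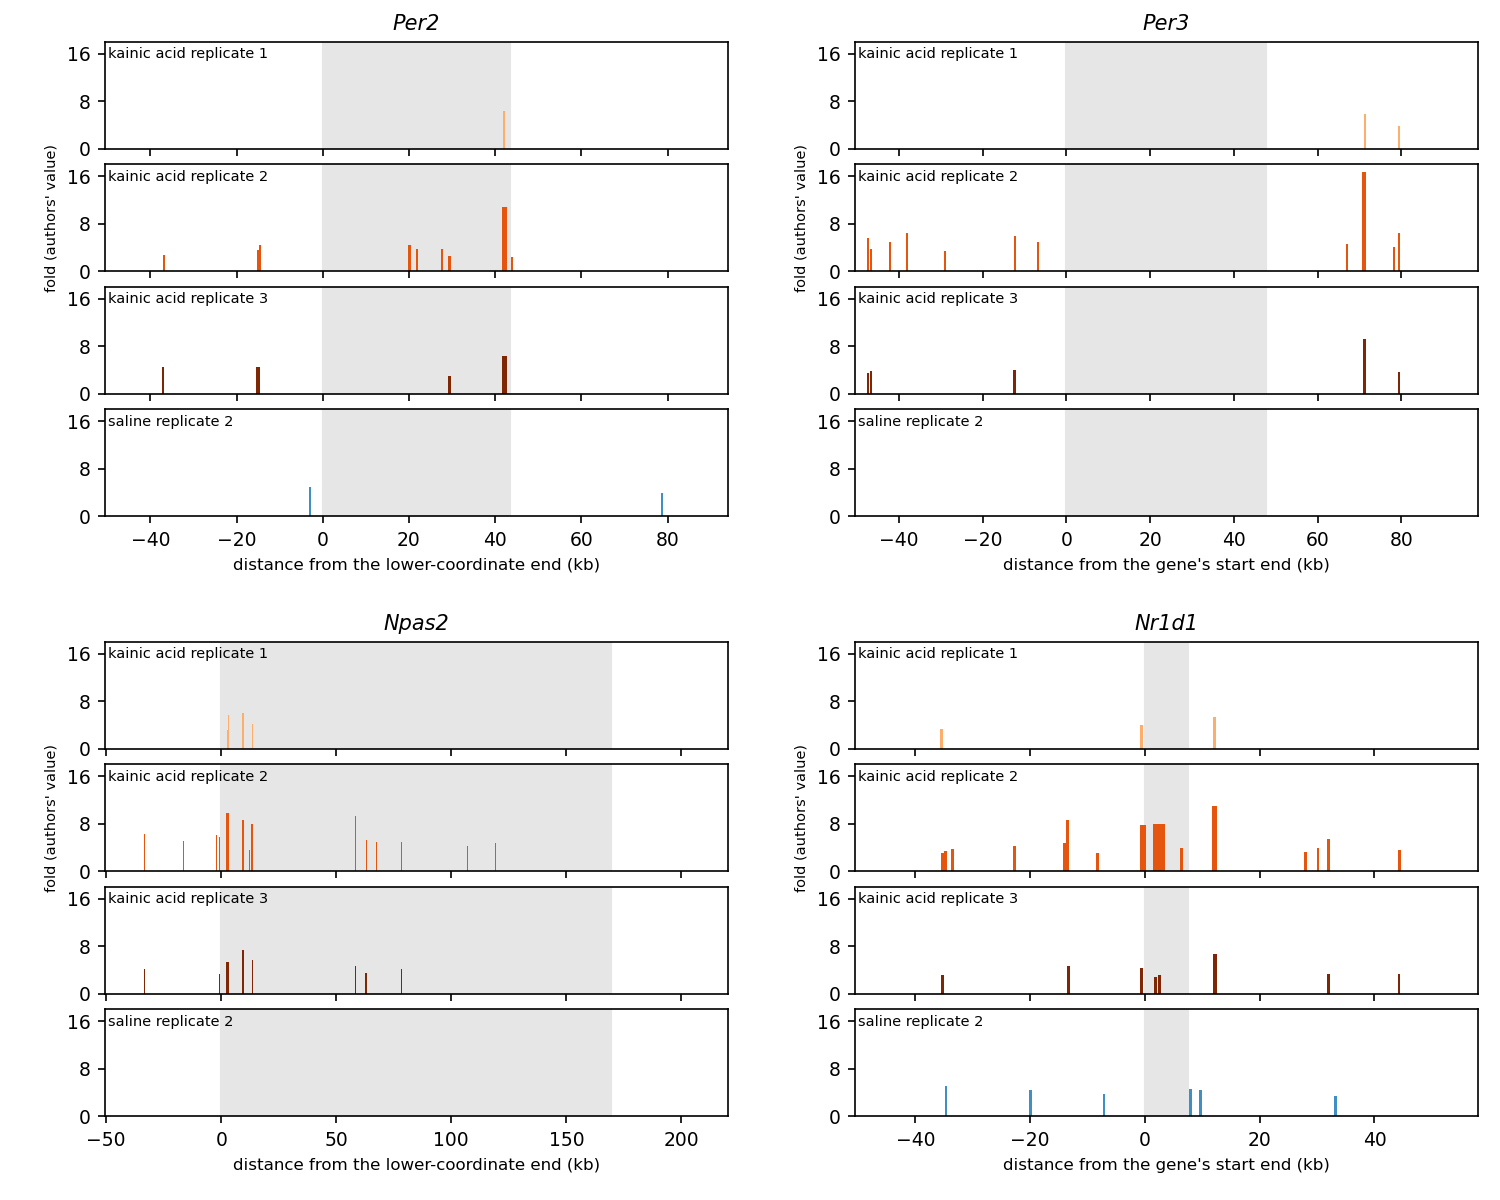
Authors' fold, a linear ratio (vertical axes), of the peaks near Per2, Per3, Npas2 and Nr1d1 in the 3 kainic acid libraries and saline replicate 2. Horizontal axes give the distance in kb from the lower-coordinate end of the span (Per2, Npas2) or from the end where transcription starts (Per3, Nr1d1), the grey band is the gene span, and bars are drawn at least 0.5 kb wide. In the kainic acid panels Per2 and Npas2 carry their strongest peaks inside the gene, Per3 beyond its far end (fold 5.76, 16.7 and 9.14), and saline peaks appear at Per2 and Nr1d1.

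Position was described over the 49 regions. Of these, 17 overlapped the clock gene (34.7%), 16 another protein-coding gene only (32.7%) and 16 no gene (32.7%), while 65.1% of all kainic acid regions were in a protein-coding gene. The gene table has no exons, so exonic and intronic sites are not distinguished. The clock gene was the nearest protein-coding gene, or among those overlapped, for 25 of the 49. A promoter window of any gene was overlapped by 5 of the 49 (10.2%, interval 3.40 to 22.2), against 4.79% of all kainic acid regions. The span itself was overlapped by a kainic acid region at 7 of the 10 clock genes, against 28.5% of protein-coding genes. It was overlapped by one in all 3 lists at 4 of the 10 (Per1, Per2, Npas2 and Nr1d1), against 17.0%. These shares were not adjusted for gene length. The median windows, 137 kb against 117 kb, include the 50 kb on each side, so the spans differed relatively more than the windows. Summits of the different kainic acid libraries in a region lay within a median of 80 bp.

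Of 23 other clock genes, 19 had a kainic acid region, against 62.7% of all protein-coding genes, and 14 had one in all 3 lists, against 42.5%. Every kainic acid list exceeded every saline list at 11 of the 23, against 33.5%. The median number of regions per 100 kb was 1.61, against 0.872. Arntl itself, the partner gene of Clock, had 4 regions, 1 of them in all 3 lists. No kainic acid region was called near Arntl2, Bhlhe41, Fbxl21 and Nono, although kainic acid replicate 2 had 1, 2, 4 and 2 peaks there and replicate 3 had 1 near Arntl2. Among the best-ranked regions of this list were those near Sik1, Btrc, Fbxw11 and Timeless, each in 3 kainic acid lists and with no saline peak. Near Sik1, a kinase gene that limits the clock's response to light, the region at chr17:31892572-31893619 had folds of 11.0, 15.9 and 11.5. Near Btrc, whose F-box product marks PER proteins for degradation, the region at chr19:45337834-45338867 had folds of 9.60, 17.3 and 10.7. Their mean percentiles, 1.02 and 1.40, were lower than that of any region near the 10 genes. The region near Fbxw11, a relative of Btrc, had folds of 7.38, 9.12 and 8.12, and that near Timeless had 7.68, 8.64 and 8.14. The Fbxw11 region lay inside that gene, while those near Sik1, Btrc and Timeless lay outside the spans of these genes. Whether the regions near Btrc and Timeless lay in, or nearer to, another gene was not examined. The windows of Sik1, Btrc and Timeless held 0, 3 and 7 other protein-coding genes.

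**Figure D5:**
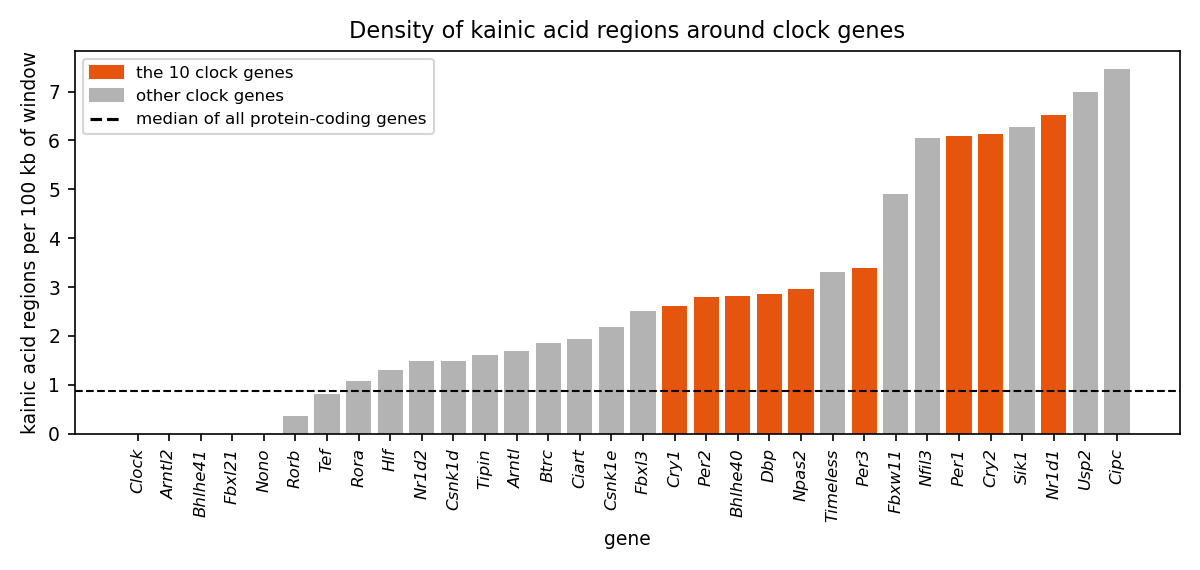
Kainic acid regions per 100 kb of window (vertical axis) for the 10 clock genes (orange) and other clock genes (grey), with the median of all protein-coding genes as a dashed line (0.872). All of the 10 but Clock lie above the line, from 2.61 at Cry1 to 6.51 at Nr1d1.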

How the data were processed

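The data were 6 peak lists, 1 per library and none pooled. Per the submitters' processing notes the build was mm10 and Trim Galore 0.6.4, Bowtie2 2.3.4.3, MACS2 and deepTools 3.5.0 were used. Which control and cutoff the calling used is not given in the sources used here. The authors' fold per peak is a linear ratio to a background. Values of −log10 p and −log10 q were deposited with each peak, and the authors' score equals 10 times the −log10 q, rounded down. No value is scaled between libraries.

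Peaks were assigned to genes by the GRCm38.p6 RefSeq spans (mm10 is the same assembly), extended by 50 kb. Overlapping peaks (at least 1 bp) were merged. The number of peaks per gene, as log10(n + 1), was compared for every protein-coding gene by an exact permutation test (two-sided) with Benjamini-Hochberg adjustment. Merging, counting and the test were checked on simulated lists. Scripts used Python 3.11.15, pandas 2.3.3 and scipy 1.17.1. Named are the 10 members, the other clock genes without a region and the 5 with the best rank, and nearest genes. Of those 5, 1 is not reported here. Arntl was added after its values were seen. Regions described singly are the best per member, those with a saline peak and those in all 3 lists inside a member. Further regions and peaks were added after their values were seen. The members and lists were chosen with earlier results of these data known. The planned motif share of regions was not run, since no genome was used here.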

Additional observations from a re-analysis of the deposited data

How the results depend on the processing

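Only lists were available, so read depth, which limits what each library could call, is unknown, and list length moved with most counts. Of 229 alternative values 136 stayed close and 93 moved. A change of direction was not among the outcomes scored. The 49 regions became 23 within 10 kb, 31 and 12 at a −log10 q of at least 5 and 10, 15 when all 3 lists were required, 20 with each kainic acid list held to its 15009 highest-fold peaks, and 15 to 48 with 1 library left out. The 3 genes with more peaks in every kainic acid list became 5 at a −log10 q of at least 5 (background 31.4%). With 1 library left out they were 3 to 9 (background 33.5 to 53.9%). With the replicate number as a replicate block the count was 7 (background 44.3%). Deviations of same-numbered libraries correlated at 0.354, 0.347 and 0.0137 over genes. Those of saline replicate 3 and kainic acid replicate 1 also correlated at 0.354. With 7 and 2 peaks in saline replicates 1 and 3, such values cannot show pairing, and the numbers were not taken as pairs. The median best percentile of 13.0 became 20.3 and 30.0 at a −log10 q of at least 5 and 10, 20.3 with equal list lengths, and 7.73 to 12.4 with 1 library left out. The log10 difference in peaks per library, 1.23, ranged from 1.01 to 1.67. The share of regions with a saline peak, 6.12%, was 0% at both stricter thresholds, 2.17% with summits within 200 bp and 0 to 13.3% with 1 library left out. The share in all 3 lists, 30.6%, was 55.0% with equal list lengths. Clock genes with a region numbered 6 to 9 under every alternative, while the share over all protein-coding genes ranged from 36.1% to 74.7%. The motif share of regions was not run.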
